A study of Mus musculus with 9 samples.

Results

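Genes of ribosome production and classical MYC targets were followed in D2.OR, a mammary tumor line of the mouse whose disseminated cells are known to stay quiescent for long, cultured in 3D in 3 kinds of matrix. The genes were a fixed list of 35 that build ribosomes in the nucleolus or are classical targets of the transcription factor MYC. Of these, 33 were measured among 19938 genes. Noc2l and Ppan have no value here: the first was not matched by its symbol, and the probe set of the second is shared with another gene in the annotation. No expression value was used to choose the list, but it was proposed with earlier results of these data known.

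Each group held 3 Affymetrix arrays of total RNA. The collagen matrices were fibrillar collagen I, in which the protein is assembled into fibres, and non-fibrillar collagen I, in which it is not. The third group takes its name, Matrigel (a basement membrane extract), only from the titles of its arrays. Their growth label is that of non-fibrillar collagen I, and the design text mentions no condition besides the collagens. All groups are 1 cell line with no named genetic change or drug, and the series title ties fibrillar collagen to protection against mammary cancer after pregnancy. The Matrigel arrays also carry later record numbers than the collagen arrays, so any batch and the Matrigel group cannot be told apart. No label states that the replicates are separate cultures, so each p-value reflects only the spread among these samples, and that spread may be technical.

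A ribosome begins as one long RNA, transcribed by RNA polymerase I in the nucleolus. The small subunit processome folds and cuts its small-subunit part, other factors assemble the large subunit, and small nucleolar ribonucleoproteins (RNPs) guide chemical changes on the RNA. MYC, paired with its partner MAX, binds E-box DNA and is known to drive many of these genes together with enzymes of polyamine and pyrimidine synthesis. Proliferating tumor cells are known for enlarged nucleoli and high ribosome production, and dormant cells for low output.

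Values are log2 expression by RMA (robust multi-array average), a scale on which a difference of 1 is a 2-fold change, and a fold is given as the higher over the lower group mean. Levels compare a gene between arrays and not genes with each other, since probes differ in brightness. The arrays had medians of 5.98 to 6.05 log2 over 35512 probe sets, and precision is limited by how many arrays there are. All 33 genes were bright: their means over the 9 arrays ran upward of 7.44 log2 (Rrs1, percentile 61.1 of all genes), with a median of 9.16 (percentile 84.1) and a top value of 11.14 (Ncl, percentile 97.6). Because bright genes pass the test more often than dim ones, counts are also set beside those of the 9969 brightest genes, called the brighter genes. Many probe sets held one identical value on several arrays (34.5% on at least 1 Matrigel and 1 collagen array), as 7 of the 33 genes did.

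Of 7 epithelial markers fixed for the line, 5 lay above the median gene, at 6.44 log2, among them Krt8 (13.22), Krt18 (12.79) and Cdh1 (9.06), and Epcam (6.08) and Krt19 (5.37) lay below it. Such a position describes a probe's brightness and does not show that a gene is present or absent. The mean of the 7 epithelial markers was 9.13 to 9.16 on the fibrillar arrays, 9.20 to 9.22 on the non-fibrillar arrays and 8.89 to 8.94 on the Matrigel arrays. It therefore moved with the groups as the described genes did, and its part in their differences was not tested. Of 6 fibroblast markers 3 lay above the median gene, Pdgfra (10.80) the brightest, and the list's mean was 6.73 to 6.86, 6.60 to 6.74 and 6.78 to 6.95 log2 on the fibrillar, non-fibrillar and Matrigel arrays. The 4 endothelial, 4 adipocyte and 4 lymphocyte markers measured all lay under the median gene. Macrophage markers Ptprc (4.97) and Csf1r (4.80), with Adgre1 and Tyrobp, did too, although Cd68 (8.36) and Cd14 (7.78) did not. In bulk RNA, fewer cells of a type and less RNA per cell cannot be told apart.

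Expression of the 33 genes was highest in non-fibrillar collagen. Averaged over the genes, the deviation from each gene's own 9-array mean was -0.015 ± 0.028 log2 in fibrillar collagen, 0.096 ± 0.020 in non-fibrillar collagen and -0.081 ± 0.022 in Matrigel (SD, n = 3 arrays each). Array by array it was 0.013, -0.016 and -0.043 log2 in fibrillar collagen, 0.088, 0.118 and 0.082 in non-fibrillar collagen, and -0.102, -0.058 and -0.082 in Matrigel. No array of one group entered the range of another. The order of group means was non-fibrillar, fibrillar, Matrigel for 23 genes. A further 5 (Rrp9, Imp4, Bop1, Pes1, Gnl3) had non-fibrillar first and fibrillar last. Utp20, Heatr1 and Cad were highest in fibrillar and lowest in Matrigel, Rrp12 ran fibrillar, Matrigel, non-fibrillar, and Polr1a ran Matrigel, fibrillar, non-fibrillar.

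**Figure D1:**
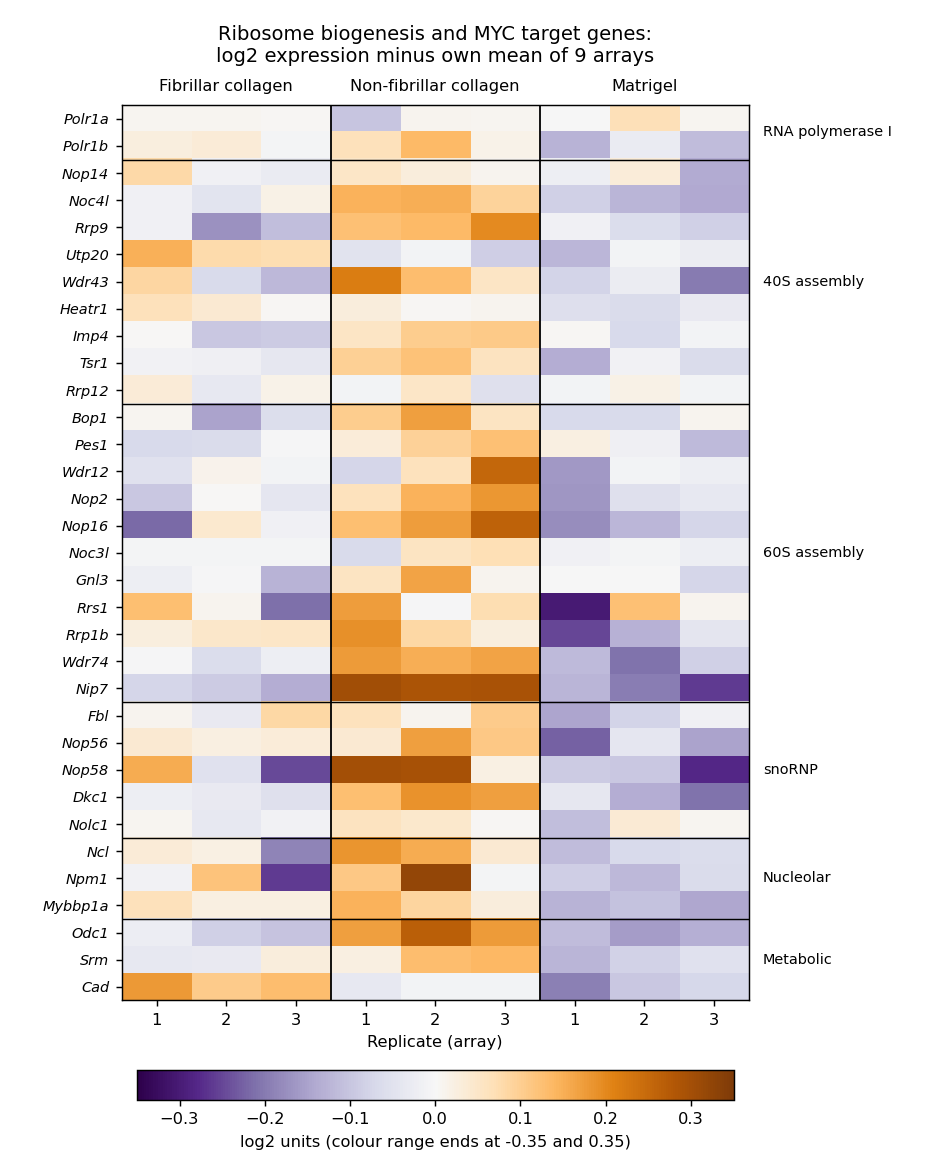
Each row is 1 of the 33 measured genes, grouped by role, and each column 1 array (fibrillar, non-fibrillar, Matrigel, 3 each); colour is the log2 value minus the gene's mean over the 9 arrays. Most rows are highest in the non-fibrillar columns, while Utp20 and Cad are highest in the fibrillar columns.

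Fibrillar collagen was compared with non-fibrillar collagen, the pair that the design text names. Of the 33 genes, 5 were lower in fibrillar collagen, 0 higher and 28 did not pass (limma, Benjamini-Hochberg adjusted p under 0.05 over all genes). Of all genes, 6.4% were called in either direction, 3.69% lower and 2.71% higher, and of the brighter genes 7% were called lower. The genes that fell were Nip7, Odc1, Wdr74, Dkc1 and Rrp9, by 1.14-fold to 1.31-fold. The median difference was -0.12 log2, against 0.008 over all genes, and 28 of 33 differences were negative. Every fibrillar array lay below every non-fibrillar array for 15 genes (background 13.6%, and 24.6% among the brighter genes) and above for 2, Utp20 and Cad (background 11.6%). At an unadjusted p under 0.05, limma gave 16 of the 33 genes and 4316 of all 19938.

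The arrays of the same number deviated together in this pair, and with replicate number as a block 3 genes were called, not 5: Dkc1 (adjusted p = 0.0552) and Rrp9 (0.0581) no longer passed. Nip7 alone kept its call when any 1 of the 6 arrays was left out; 3 genes passed without fibrillar replicate 1 (Nip7, Odc1, Rrp9) and 1 without any other array. Keeping only the brighter genes, and so adjusting over fewer tests, gave 11 calls, 9 lower and 2 higher (Cad and Utp20), where 22.2% of the remaining genes were called.

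Non-fibrillar collagen was higher than Matrigel for 14 of the 33 genes and lower for 0. Of all genes 13.8% were called in either direction, 6.75% higher and 7.07% lower, and 12.5% of the brighter genes were called higher. The 14 were Nip7, Odc1, Wdr74, Noc4l, Dkc1, Mybbp1a, Nop16, Nop56, Rrp9, Nop2, Srm, Rrp1b, Tsr1 and Polr1b, at 1.12-fold to 1.40-fold. The median difference was 0.16 log2, against 0.0006 over all genes, and 31 of 33 differences were positive. Every non-fibrillar array lay above every Matrigel array for 25 genes (background 14.4%, and 24.8% among the brighter genes), and below for 0 (background 14%).

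Nip7, Odc1, Wdr74, Noc4l, Dkc1 and Mybbp1a passed in this pair whichever array was left out. The count of calls was 7 without non-fibrillar replicate 2, 9 without Matrigel replicate 1 or Matrigel replicate 2, and 11 without any of the other 3. The main fit of this pair also draws its spread from the fibrillar arrays. In a fit of only the 6 arrays compared, Polr1b (adjusted p = 0.0808), Rrp1b (0.0711), Tsr1 (0.0639) and Srm (0.0514) no longer passed.

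Fibrillar collagen against Matrigel gave 1 call, Cad, which was higher, and 0 lower calls. Of all genes 3.82% were called in either direction, 1.45% higher and 2.37% lower, and of the brighter genes 6.71% in either direction. The 1 call was 3.03% of the 33 genes, below both shares called in either direction. The median was 0.061 log2, against 0.0028 over all genes, and 27 of 33 differences were positive. Every fibrillar array lay above every Matrigel array for 11 genes (background 9.05%, and 11.8% among the brighter genes) and below for 0 (background 11.3%). At an unadjusted p under 0.05, limma gave 9 of the 33 genes and 3606 of all 19938. Each matrix enters 2 of the 3 comparisons, so the comparisons are not independent of each other.

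**Figure D2:**
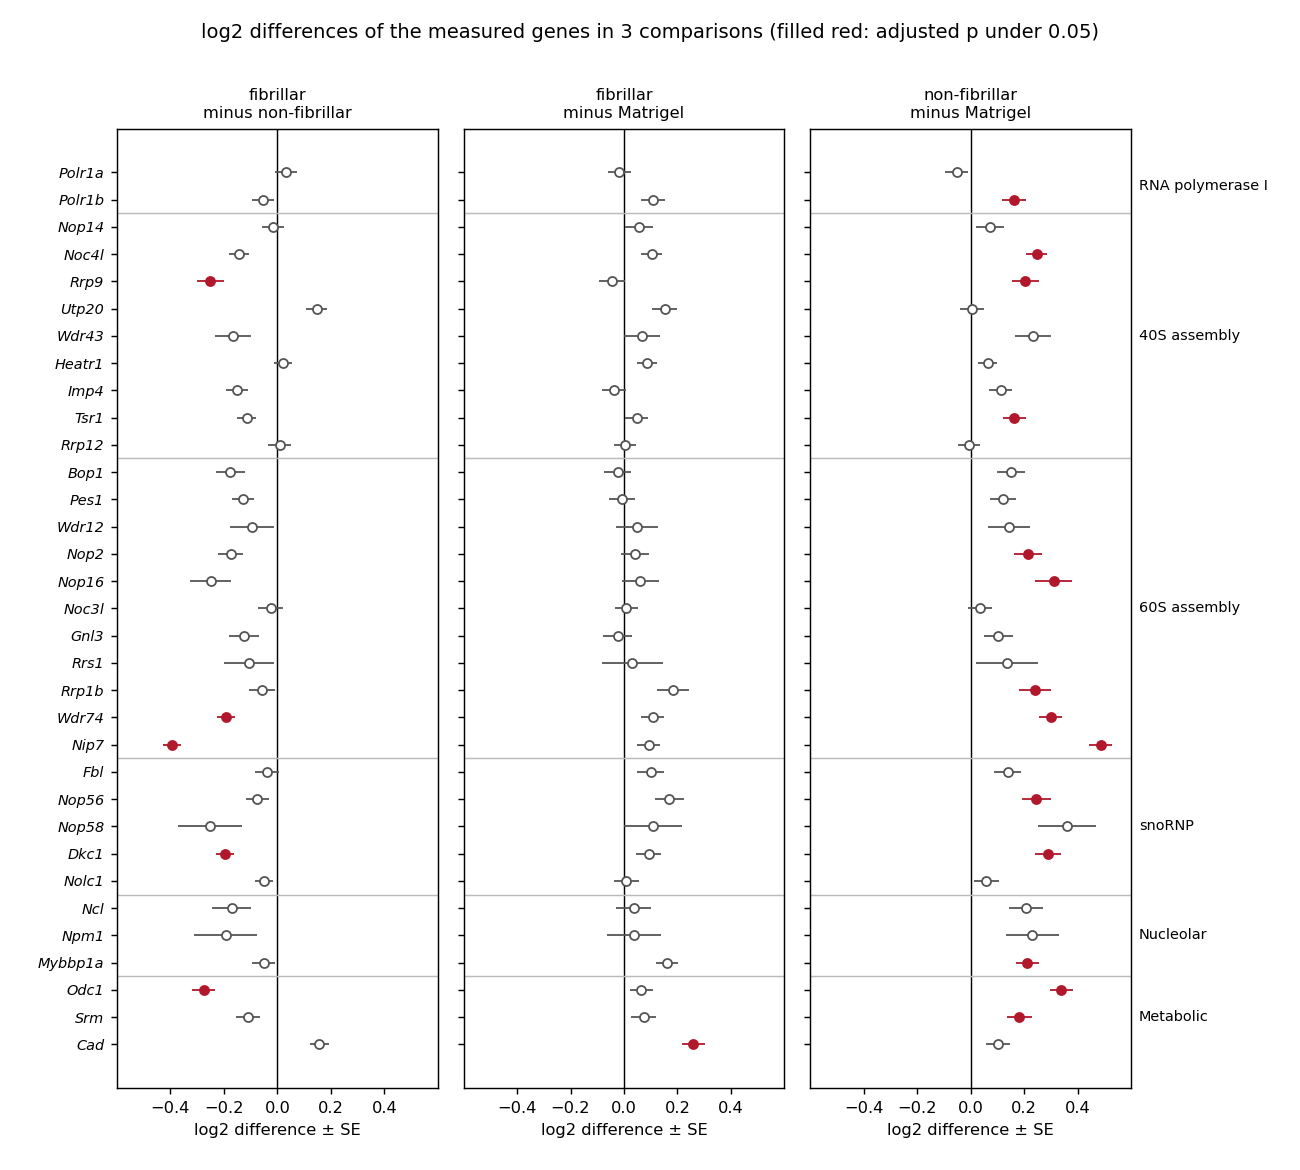
Points are log2 differences with standard errors (n = 3 arrays per group) for the 33 genes in fibrillar minus non-fibrillar, fibrillar minus Matrigel and non-fibrillar minus Matrigel; filled red points have an adjusted p under 0.05. The 5 filled points of the first panel lie left of 0, the 1 of the second (Cad) and the 14 of the third lie right of 0.

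Promoter letters are shown for 3 of the genes that passed and hold an E-box in the 250 bases upstream: Nip7 and Odc1, which had the smallest adjusted p of the 33 genes in both comparisons with non-fibrillar collagen, and Nop2, which carries the canonical form. The rank of Odc1 holds for the probe set used. Its other probe set did not pass between the collagens (adjusted p over probe sets = 0.1106). Capitals mark CACGTG, the E-box best bound by MYC and MAX, or CACGCG, a variant searched on both strands and so also read as CGCGTG. They are RefSeq sequence of build GRCm38.p6, plus strand, 5′ to 3′, ending at the base before the annotated start, at chr8:107056627-107056876, chr12:17544623-17544872 and chr6:125131633-125131882.
Nip7: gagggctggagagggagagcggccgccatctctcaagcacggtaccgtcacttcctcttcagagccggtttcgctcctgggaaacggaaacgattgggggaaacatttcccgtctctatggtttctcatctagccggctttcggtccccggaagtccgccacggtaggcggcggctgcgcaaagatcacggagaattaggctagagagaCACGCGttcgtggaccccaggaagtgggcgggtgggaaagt
Odc1: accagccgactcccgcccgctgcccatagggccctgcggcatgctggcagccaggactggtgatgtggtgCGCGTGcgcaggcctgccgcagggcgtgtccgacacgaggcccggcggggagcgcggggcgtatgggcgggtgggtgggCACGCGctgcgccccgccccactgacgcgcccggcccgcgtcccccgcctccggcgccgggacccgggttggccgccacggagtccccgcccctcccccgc
Nop2: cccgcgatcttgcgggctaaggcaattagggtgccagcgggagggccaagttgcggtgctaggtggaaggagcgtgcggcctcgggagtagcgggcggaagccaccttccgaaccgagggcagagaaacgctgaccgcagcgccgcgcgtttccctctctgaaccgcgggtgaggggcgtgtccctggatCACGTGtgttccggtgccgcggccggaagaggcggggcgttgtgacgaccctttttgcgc

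Counted from the annotated start, the first base of CACGCG in Nip7 was at -41, those of the 2 Odc1 motifs at -180 and -101, and that of CACGTG in Nop2 at -60. Promoters were matched by symbol for 29 of the 35 genes, over 250 bases before and 50 after the start. CACGTG was present in 7 of 29 (24.1%: Imp4, Nop2, Utp20, Pes1, Mybbp1a, Tsr1 and Wdr43), against 8.09% of 27025 genes. CACGCG on either strand was present in 8 of 29 (27.6%, against 10.5%), and one or the other in 13 of 29 (44.8%, against 17.2%). Wdr74, Dkc1, Rrp9, Noc4l, Nop56, Polr1b, Rrp1b and Cad, which also passed in a comparison, held neither form. Among further genes of these pathways, listed separately, 53 of 109 (48.6%) held one or the other. Of the 7 genes with the canonical form, Utp20 had its highest group mean in fibrillar collagen. Imp4, Nop2, Pes1, Mybbp1a, Tsr1 and Wdr43 had theirs in non-fibrillar collagen, as did 28 of the 33 measured genes. The genes were listed in part as known MYC targets, so a larger share with an E-box is not an independent result. The background was every gene with a promoter, not chosen for brightness or base composition. A match is a string of letters and not a site shown to be bound.

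Of the large subunit assembly genes, Nip7, a factor needed for late steps of 60S maturation and for rRNA processing, had 8.46, 8.44 and 8.40 log2 on the fibrillar arrays, 8.84, 8.82 and 8.83 on the non-fibrillar arrays, and 8.41, 8.34 and 8.28 on the Matrigel arrays. The non-fibrillar arrays stood above all others, and the fibrillar and Matrigel ranges overlapped. Nip7 fell by 0.39 ± 0.034 log2 in fibrillar against non-fibrillar collagen (SE, 1.31-fold, adjusted p = 0.0053) and was 0.49 ± 0.044 log2 (SE, 1.40-fold, adjusted p = 1.3e-04) higher in non-fibrillar collagen than in Matrigel. Against Matrigel the fibrillar arrays differed by 0.093 ± 0.044 log2 (SE, 1.07-fold, adjusted p = 0.3017).

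Wdr74, a WD-repeat protein of nucleolar pre-60S particles, had 8.76, 8.70 and 8.74 log2 on the fibrillar arrays, 8.94, 8.91 and 8.93 on the non-fibrillar arrays, and 8.64, 8.55 and 8.68 on the Matrigel arrays. The 3 groups did not overlap, with non-fibrillar highest and Matrigel lowest. The difference was -0.19 ± 0.034 log2 (SE, 1.14-fold, adjusted p = 0.0280) between fibrillar and non-fibrillar collagen, 0.30 ± 0.043 log2 (SE, 1.23-fold, adjusted p = 0.0016) between non-fibrillar collagen and Matrigel, and 0.11 ± 0.043 log2 (SE, 1.08-fold, adjusted p = 0.2270) between fibrillar collagen and Matrigel, the last not passing. Its call between the collagens was lost with any 1 array left out.

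Nop16, a nucleolar protein of early 60S particles and a known MYC target, had 10.10, 10.36 and 10.30 log2 on the fibrillar arrays, 10.45, 10.49 and 10.58 on the non-fibrillar arrays, and 10.14, 10.20 and 10.24 on the Matrigel arrays. Its non-fibrillar values lay above all others, and fibrillar replicate 1 stood apart at 10.10. It rose by 0.31 ± 0.069 log2 (SE, 1.24-fold, adjusted p = 0.0143) in non-fibrillar collagen against Matrigel, a call lost without non-fibrillar replicate 3 or Matrigel replicate 2, and differed by -0.25 ± 0.075 log2 (SE, 1.19-fold, adjusted p = 0.1139) between fibrillar and non-fibrillar collagen.

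Nop2, an rRNA methyltransferase, had 8.97, 9.07 and 9.03 log2 on the fibrillar arrays, 9.13, 9.22 and 9.25 on the non-fibrillar arrays, and 8.90, 9.02 and 9.03 on the Matrigel arrays. Its non-fibrillar values were again above all others. It was higher in non-fibrillar collagen than in Matrigel by 0.21 ± 0.052 log2 (SE, 1.16-fold, adjusted p = 0.0224), which did not pass without non-fibrillar replicate 2 or 3 or without Matrigel replicate 1 or 2. The fibrillar minus non-fibrillar difference was -0.18 ± 0.047 log2 (SE, 1.13-fold, adjusted p = 0.0862).

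Rrp1b, a nucleolar protein studied as a modifier of breast cancer metastasis, had 7.58, 7.60 and 7.60 log2 on the fibrillar arrays, 7.74, 7.64 and 7.58 on the non-fibrillar arrays, and 7.30, 7.43 and 7.51 on the Matrigel arrays. Here the 2 collagen groups overlapped and both lay above Matrigel. The call between non-fibrillar collagen and Matrigel (0.24 ± 0.060 log2, 1.18-fold, adjusted p = 0.0257) was lost without non-fibrillar replicate 1 or 2 or without Matrigel replicate 1 or 2. Fibrillar collagen differed from Matrigel by 0.18 ± 0.060 log2 (SE, 1.14-fold, adjusted p = 0.1420).

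The other 6 measured genes of 60S assembly passed in no comparison. They were Bop1, Pes1 and Wdr12, the partners of the PeBoW complex, with Gnl3 (nucleostemin), Noc3l, a nucleolar complex protein, and Rrs1, which helps bring the 5S particle into the subunit. All 6 were lower in mean in fibrillar than in non-fibrillar collagen, by differences of -0.18 (Bop1) to -0.026 (Noc3l) log2. For Bop1, Pes1 and Gnl3 every fibrillar array lay below every non-fibrillar array. That held for 13.6% of all genes and 24.6% of the brighter genes. Noc3l had one identical value, 8.64, on all 3 fibrillar arrays. Over the role as a whole, 2 of 11 genes were called between the collagens, both lower, 5 of 11 between non-fibrillar collagen and Matrigel, all higher, and 0 of 11 between fibrillar collagen and Matrigel. Over all genes 3.69% were lower in the first pair (7% of the brighter genes) and 6.75% higher in the second (12.5%). In the last pair 3.82% were called (6.71% of the brighter genes).

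**Figure D3:**
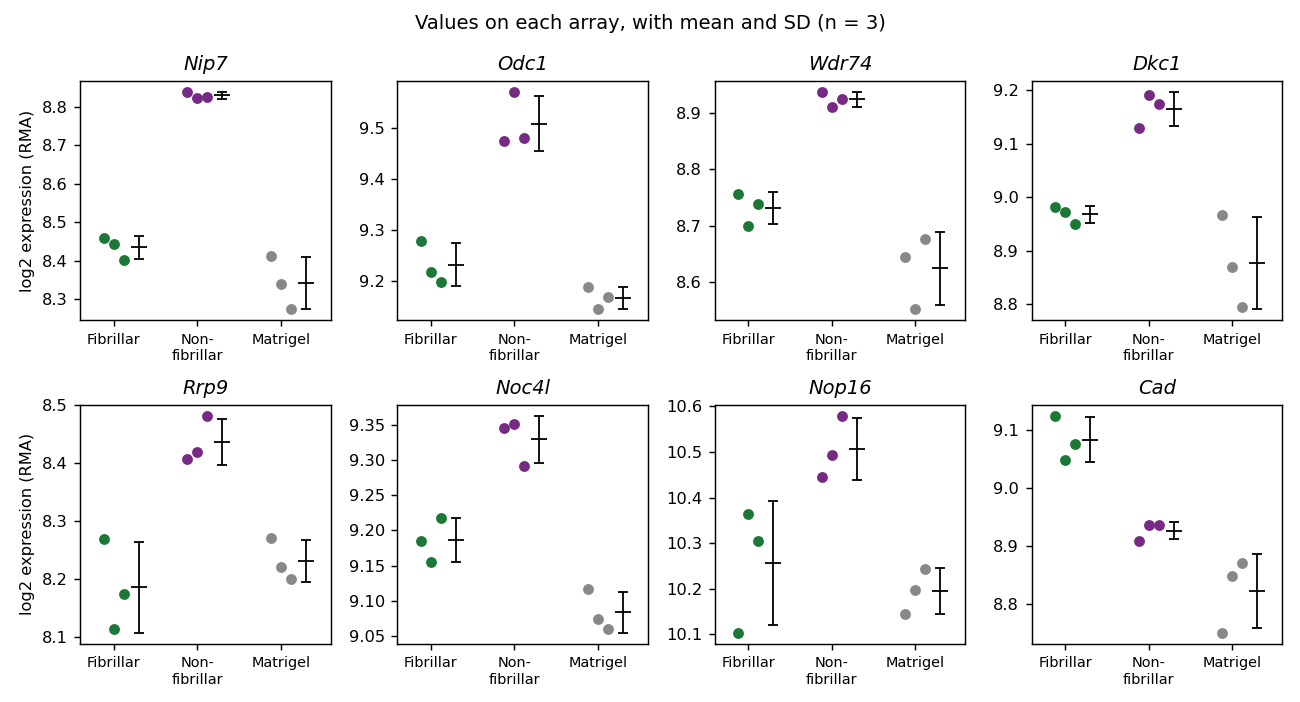
Each panel is 1 gene (Nip7, Odc1, Wdr74, Dkc1, Rrp9, Noc4l, Nop16, Cad), with log2 expression on the vertical axis, 1 point per array and a bar at the group mean; error bars are the SD (n = 3). The non-fibrillar points stand highest in all panels except that of Cad, where the fibrillar points do.

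The small subunit processome and its 40S partners counted 9 genes, all measured. Rrp9, a protein of the U3 small nucleolar RNP that starts small subunit processing, had 8.27, 8.11 and 8.17 log2 on the fibrillar arrays, 8.41, 8.42 and 8.48 on the non-fibrillar arrays, and 8.27, 8.22 and 8.20 on the Matrigel arrays. Non-fibrillar values lay above all others, and the fibrillar range reached under the Matrigel range. Rrp9 fell by 0.25 ± 0.050 log2 in fibrillar against non-fibrillar collagen (SE, 1.19-fold, adjusted p = 0.0389), which passed without fibrillar replicate 1 but not without any other array. It was higher in non-fibrillar collagen than in Matrigel by 0.21 ± 0.049 log2 (SE, 1.15-fold, adjusted p = 0.0205), which passed without non-fibrillar replicate 1 or Matrigel replicate 1 but not without any other array.

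Noc4l, needed in yeast for export of small subunit precursors, had 9.19, 9.16 and 9.22 log2 on the fibrillar arrays, 9.35, 9.35 and 9.29 on the non-fibrillar arrays, and 9.12, 9.07 and 9.06 on the Matrigel arrays. None of the 3 groups overlapped. It rose by 0.25 ± 0.039 log2 (SE, 1.19-fold, adjusted p = 0.0028) in non-fibrillar collagen against Matrigel, and the fibrillar minus non-fibrillar difference was -0.14 ± 0.037 log2 (SE, 1.10-fold, adjusted p = 0.0752).

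Tsr1, a GTPase-like factor of late 40S particles, had 8.94, 8.93 and 8.91 log2 on the fibrillar arrays, 9.04, 9.07 and 9.01 on the non-fibrillar arrays, and 8.81, 8.94 and 8.88 on the Matrigel arrays. Fibrillar and Matrigel values overlapped and the non-fibrillar values were above both. It was higher in non-fibrillar collagen than in Matrigel by 0.16 ± 0.043 log2 (SE, 1.12-fold, adjusted p = 0.0319), a call lost without non-fibrillar replicate 1 or 2 or without Matrigel replicate 1 or 3. The fibrillar minus non-fibrillar difference was -0.12 ± 0.035 log2 (SE, 1.08-fold, adjusted p = 0.1128).

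Utp20, a large scaffold of the processome, was 1 of the 4 genes with the highest mean in fibrillar collagen. It had 9.27, 9.20 and 9.19 log2 on the fibrillar arrays, 9.07, 9.11 and 9.03 on the non-fibrillar arrays, and 8.99, 9.11 and 9.09 on the Matrigel arrays. Fibrillar values were above all others, and the non-fibrillar and Matrigel values overlapped. The differences were 0.15 ± 0.040 log2 (SE, 1.11-fold, adjusted p = 0.0875) against non-fibrillar collagen and 0.15 ± 0.046 log2 (SE, 1.11-fold, adjusted p = 0.1081) against Matrigel, and neither passed.

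The other 5 genes of the role, Wdr43 and Heatr1 (processome proteins that also support rRNA transcription), Imp4, Nop14 and Rrp12 (an export factor in yeast), passed nowhere. Nearest was Wdr43 in non-fibrillar collagen against Matrigel, at 0.23 ± 0.069 log2 (SE, 1.18-fold, adjusted p = 0.0509). Imp4, a U3 RNP protein, differed by -0.15 ± 0.042 log2 (SE, 1.11-fold, adjusted p = 0.0923) between fibrillar and non-fibrillar collagen with no overlap of arrays. Of the 9 genes of the role, 1 (11.1%) was lower between the collagens, beside 3.69% of all genes and 7% of the brighter ones. Between non-fibrillar collagen and Matrigel 3 (33.3%) were higher, beside 6.75% and 12.5%. Between fibrillar collagen and Matrigel 0 were called, beside 3.82% of all genes and 6.71% of the brighter ones.

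Among the 5 genes of small nucleolar RNPs, Dkc1 encodes dyskerin, the pseudouridine synthase of box H/ACA RNPs. It had 8.98, 8.97 and 8.95 log2 on the fibrillar arrays, 9.13, 9.19 and 9.17 on the non-fibrillar arrays, and 8.97, 8.87 and 8.79 on the Matrigel arrays. Its non-fibrillar arrays were above all others, and fibrillar and Matrigel values overlapped only at Matrigel replicate 1. Dkc1 fell by 0.20 ± 0.035 log2 in fibrillar against non-fibrillar collagen (SE, 1.15-fold, adjusted p = 0.0281), a call lost with any 1 array left out. Non-fibrillar collagen exceeded Matrigel by 0.29 ± 0.048 log2 (SE, 1.22-fold, adjusted p = 0.0037).

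Nop56, a core protein of box C/D RNPs, had 10.50, 10.48 and 10.49 log2 on the fibrillar arrays, 10.50, 10.63 and 10.57 on the non-fibrillar arrays, and 10.24, 10.42 and 10.31 on the Matrigel arrays. Both collagen groups lay above Matrigel. It rose by 0.25 ± 0.054 log2 (SE, 1.19-fold, adjusted p = 0.0143) in non-fibrillar collagen against Matrigel, a call lost without non-fibrillar replicate 2, and differed by 0.17 ± 0.054 log2 (SE, 1.12-fold, adjusted p = 0.1297) between fibrillar collagen and Matrigel. Its core partners Nop58 (0.36 ± 0.109 log2, 1.28-fold, adjusted p = 0.0569) and Fbl, the methyltransferase fibrillarin (0.14 ± 0.050 log2, 1.10-fold, adjusted p = 0.1062), did not pass between non-fibrillar collagen and Matrigel. Neither did Nolc1, a chaperone of these RNPs, at 0.059 ± 0.046 log2 (SE, 1.04-fold, adjusted p = 0.5050). All 5 genes had lower means in fibrillar than in non-fibrillar collagen.

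Of the abundant nucleolar proteins, Mybbp1a, which binds MYB and takes part in rRNA synthesis, had 10.23, 10.19 and 10.19 log2 on the fibrillar arrays, 10.32, 10.26 and 10.20 on the non-fibrillar arrays, and 10.04, 10.07 and 10.03 on the Matrigel arrays. Both collagen groups were above Matrigel, and they overlapped each other. It rose by 0.21 ± 0.042 log2 (SE, 1.16-fold, adjusted p = 0.0083) in non-fibrillar collagen against Matrigel. The fibrillar minus Matrigel difference was 0.16 ± 0.042 log2 (SE, 1.12-fold, adjusted p = 0.0697).

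Ncl, nucleolin, which packages nascent rRNA, had 11.17, 11.16 and 10.95 log2 on the fibrillar arrays, 11.33, 11.29 and 11.18 on the non-fibrillar arrays, and 11.03, 11.07 and 11.08 on the Matrigel arrays. The lowest value was fibrillar replicate 3, and the fibrillar values lay below the non-fibrillar values. Its differences were -0.17 ± 0.072 log2 (SE, 1.12-fold, adjusted p = 0.2392) between fibrillar and non-fibrillar collagen and 0.21 ± 0.065 log2 (SE, 1.15-fold, adjusted p = 0.0641) between non-fibrillar collagen and Matrigel, and neither passed. Npm1, nucleophosmin, was -0.19 ± 0.118 log2 and 0.23 ± 0.101 log2 in the same comparisons and did not pass.

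Of RNA polymerase I, Polr1b, the second largest subunit, had 8.76, 8.77 and 8.73 log2 on the fibrillar arrays, 8.80, 8.87 and 8.75 on the non-fibrillar arrays, and 8.61, 8.71 and 8.62 on the Matrigel arrays. Its non-fibrillar and fibrillar values overlapped, and both were above Matrigel. It was higher in non-fibrillar collagen than in Matrigel by 0.16 ± 0.046 log2 (SE, 1.12-fold, adjusted p = 0.0428), which did not pass without non-fibrillar replicate 1 or 2 or without Matrigel replicate 1 or 3. Polr1a, the largest subunit, had means of 8.96, 8.93 and 8.98 log2 in the fibrillar, non-fibrillar and Matrigel groups, with all groups overlapping.

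The 3 metabolic genes are enzymes of polyamine and pyrimidine synthesis. Odc1, ornithine decarboxylase, which opens polyamine synthesis, had 9.28, 9.22 and 9.20 log2 on the fibrillar arrays, 9.47, 9.57 and 9.48 on the non-fibrillar arrays, and 9.19, 9.15 and 9.17 on the Matrigel arrays. The non-fibrillar arrays were highest and the Matrigel arrays lowest, with no overlap. Odc1 fell by 0.28 ± 0.044 log2 in fibrillar against non-fibrillar collagen (SE, 1.21-fold, adjusted p = 0.0204), and the call held without fibrillar replicate 1 but not without any other array. It was higher in non-fibrillar collagen than in Matrigel by 0.34 ± 0.043 log2 (SE, 1.27-fold, adjusted p = 7.9e-04).

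These Odc1 values came from a probe set whose number lies among probe sets of chromosome 8 genes (6 of 6 neighbours), whereas the gene is on chromosome 12, so a related copy of the gene cannot be told apart. The other Odc1 probe set, among chromosome 12 genes, had 8.39, 8.43 and 8.05 log2 in fibrillar collagen, 8.60, 8.80 and 8.59 in non-fibrillar collagen, and 8.32, 8.24 and 8.32 in Matrigel. With it the fibrillar minus non-fibrillar difference was -0.37 ± 0.113 log2 (adjusted p over probe sets = 0.1106) and no longer passed, while non-fibrillar minus Matrigel was 0.37 ± 0.097 (0.0328). Wdr12 was likewise read from a probe set among chromosome 7 genes, although the gene lies on chromosome 1, and its other probe set passed nowhere. For Fbl, the probe set used lies with the gene on chromosome 7, and the other one, among chromosome 17 genes (4 of 6), gave 0.22 ± 0.048 log2 (0.0136) in non-fibrillar collagen against Matrigel.

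Srm, spermidine synthase, the next polyamine enzyme, had 10.81, 10.81 and 10.87 log2 on the fibrillar arrays, 10.86, 10.97 and 10.98 on the non-fibrillar arrays, and 10.71, 10.76 and 10.79 on the Matrigel arrays. Fibrillar and non-fibrillar values overlapped, and all collagen values were above Matrigel. It rose by 0.18 ± 0.046 log2 (SE, 1.14-fold, adjusted p = 0.0256) in non-fibrillar collagen against Matrigel, a call lost without non-fibrillar replicate 2 or 3 or without Matrigel replicate 1 or 2.

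Cad, the enzyme of the first steps of pyrimidine synthesis, had another order of groups than Odc1 and Srm, with 9.12, 9.05 and 9.08 log2 on the fibrillar arrays, 8.91, 8.94 and 8.94 on the non-fibrillar arrays, and 8.75, 8.85 and 8.87 on the Matrigel arrays. Fibrillar arrays were the highest and Matrigel arrays the lowest, with no overlap among the 3 groups. Cad was higher in fibrillar collagen than in Matrigel by 0.26 ± 0.044 log2 (SE, 1.20-fold, adjusted p = 0.0124), and passed whichever array was left out. The difference from non-fibrillar collagen was 0.16 ± 0.036 log2 (SE, 1.11-fold, adjusted p = 0.0557), and between non-fibrillar collagen and Matrigel 0.10 ± 0.044 log2 (SE, 1.07-fold, adjusted p = 0.1731).

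Lists of further genes of the same pathways, none of them among the 35, gave 130 measured genes of ribosome production. Between fibrillar and non-fibrillar collagen 19 fell and 0 rose, so 14.6% were called beside 6.4% of all genes and 12.2% of the brighter genes, with a median of -0.14 log2. Between non-fibrillar collagen and Matrigel 38 rose and 2 fell, 30.8% beside 13.8% and 25.4%, with a median of 0.13 log2. Between fibrillar collagen and Matrigel 0 rose and 1 fell, 0.769% and so below the 3.82% of all genes and 6.71% of the brighter genes, with a median of -0.0059 log2. The count between the collagens was 11 without fibrillar replicate 1, 3 without non-fibrillar replicate 1, 2 without non-fibrillar replicate 3 and 0 without fibrillar replicate 2, fibrillar replicate 3 or non-fibrillar replicate 2. With the replicate block it was 24. Between non-fibrillar collagen and Matrigel it was 20, 26, 24 and 22 without non-fibrillar replicate 2, non-fibrillar replicate 3, Matrigel replicate 2 and Matrigel replicate 3, against 40.

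Between the collagens 3.69% of all genes were called lower (7% of the brighter genes). Between non-fibrillar collagen and Matrigel 6.75% were called higher and 7.07% lower (12.5% and 12.8% of the brighter genes). Of 44 small subunit genes, 9 (20.5%) fell in fibrillar against non-fibrillar collagen. Wdr36, a processome protein, differed by -0.31 ± 0.039 log2 (SE, 1.24-fold, adjusted p = 0.0111), Pno1, an assembly factor of the 40S platform, by -0.30 ± 0.044 log2 (SE, 1.23-fold, adjusted p = 0.0176), and Emg1, an rRNA pseudouridine methyltransferase, by -0.25 ± 0.049 log2 (SE, 1.19-fold, adjusted p = 0.0375). Against Matrigel, non-fibrillar collagen had 13 higher and 2 lower, with Wdr36 at 0.41 ± 0.043 log2 (SE, 1.33-fold, adjusted p = 3.2e-04), Emg1 at 0.32 ± 0.051 log2 (SE, 1.24-fold, adjusted p = 0.0029) and Wdr75 at 0.28 ± 0.051 log2 (SE, 1.21-fold, adjusted p = 0.0061). The 2 lower genes, named after their values were seen, were Bysl (-0.16 ± 0.037 log2, 1.11-fold, adjusted p = 0.0196) and Nol6 (-0.14 ± 0.038 log2, 1.10-fold, adjusted p = 0.0378), and Nol6 had no call when any 1 array was left out. Bysl had none without any 1 non-fibrillar array or Matrigel replicate 3, nor after centring on array medians (adjusted p = 0.1044). Fcf1, the nuclease-like factor of the same list, was the 1 gene called between fibrillar collagen and Matrigel, at -0.41 ± 0.094 log2 (SE, 1.33-fold, adjusted p = 0.0435), and lost the call without any 1 array.

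The large subunit list had 49 measured genes. In fibrillar against non-fibrillar collagen 3 fell: Nifk, which binds Ki-67, at -0.30 ± 0.046 log2 (SE, 1.23-fold, adjusted p = 0.0192), Mrto4, a ribosome stalk assembly factor, at -0.35 ± 0.067 log2 (SE, 1.27-fold, adjusted p = 0.0340), and Eif6, which keeps the subunits apart, at -0.23 ± 0.051 log2 (SE, 1.17-fold, adjusted p = 0.0491). These 3 are 6.12% of the list, between the 3.69% of all genes and the 7% of the brighter genes called lower. Between non-fibrillar collagen and Matrigel 6.75% of all genes and 12.5% of the brighter genes were called higher. Against Matrigel 11 (22.4%) were higher in non-fibrillar collagen, among them Nifk (0.26 ± 0.044 log2, 1.20-fold, adjusted p = 0.0039), the helicase Ddx18 (0.25 ± 0.043 log2, 1.19-fold, adjusted p = 0.0042) and Rsl1d1 (0.28 ± 0.057 log2, 1.21-fold, adjusted p = 0.0098).

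For partners of small nucleolar RNPs, the share called was 28.6% lower between the collagens, beside 3.69% of all genes and 7% of the brighter genes. Between non-fibrillar collagen and Matrigel 50% were called higher, beside 6.75% and 12.5%. In the first pair 4 of 14 genes were lower in fibrillar collagen than in the non-fibrillar form. They included the assembly ATPase Ruvbl2 (-0.26 ± 0.045 log2, 1.20-fold, adjusted p = 0.0267), Nufip1 (-0.32 ± 0.059 log2, 1.24-fold, adjusted p = 0.0327) and Nop10, a box H/ACA protein (-0.33 ± 0.064 log2, 1.25-fold, adjusted p = 0.0365). In non-fibrillar collagen against Matrigel 7 of 14 were higher, with Ruvbl2 at 0.46 ± 0.049 log2 (SE, 1.38-fold, adjusted p = 3.3e-04), Nop10 at 0.32 ± 0.058 log2 (SE, 1.25-fold, adjusted p = 0.0050) and Nufip1 at 0.34 ± 0.063 log2 (SE, 1.26-fold, adjusted p = 0.0065).

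The RNA exosome, which trims rRNA ends, had 2 of 13 genes lower in fibrillar collagen than in the non-fibrillar form, its cofactor C1d (-0.47 ± 0.075 log2, 1.39-fold, adjusted p = 0.0216) and Exosc8 (-0.42 ± 0.074 log2, 1.33-fold, adjusted p = 0.0291). In non-fibrillar collagen against Matrigel 6 of 13 were higher, with Exosc8 at 0.56 ± 0.089 log2 (SE, 1.48-fold, adjusted p = 0.0027), Exosc2 at 0.27 ± 0.056 log2 (SE, 1.21-fold, adjusted p = 0.0101) and C1d at 0.31 ± 0.072 log2 (SE, 1.24-fold, adjusted p = 0.0187). Of 10 RNA polymerase I genes, the subunit Polr1d fell in fibrillar against non-fibrillar collagen (-0.26 ± 0.051 log2, 1.20-fold, adjusted p = 0.0353) and Polr1e was higher in non-fibrillar collagen than in Matrigel (0.25 ± 0.057 log2, 1.19-fold, adjusted p = 0.0176). The exosome calls were 15.4% of its genes between the collagens and 46.2% between non-fibrillar collagen and Matrigel, and the polymerase calls 10% in each. Beside these, 3.69% of all genes were lower in the first pair and 6.75% higher in the second (brighter genes, 7% and 12.5%). Polr1d lost its call under the replicate block and with the mean of all probe sets (adjusted p = 0.0906). Between the collagens, Eif6 (adjusted p = 0.1157) and Emg1 (0.0575) lost theirs after quantile normalization again. The calls of C1d and Polr1e against Matrigel were each lost in 4 of 6 fits that left out 1 array. Of the genes named from these lists between the collagens, Wdr36 lost its call in 4 of 6 fits that left out 1 array and the others in 5 or 6.

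**Figure D4:**
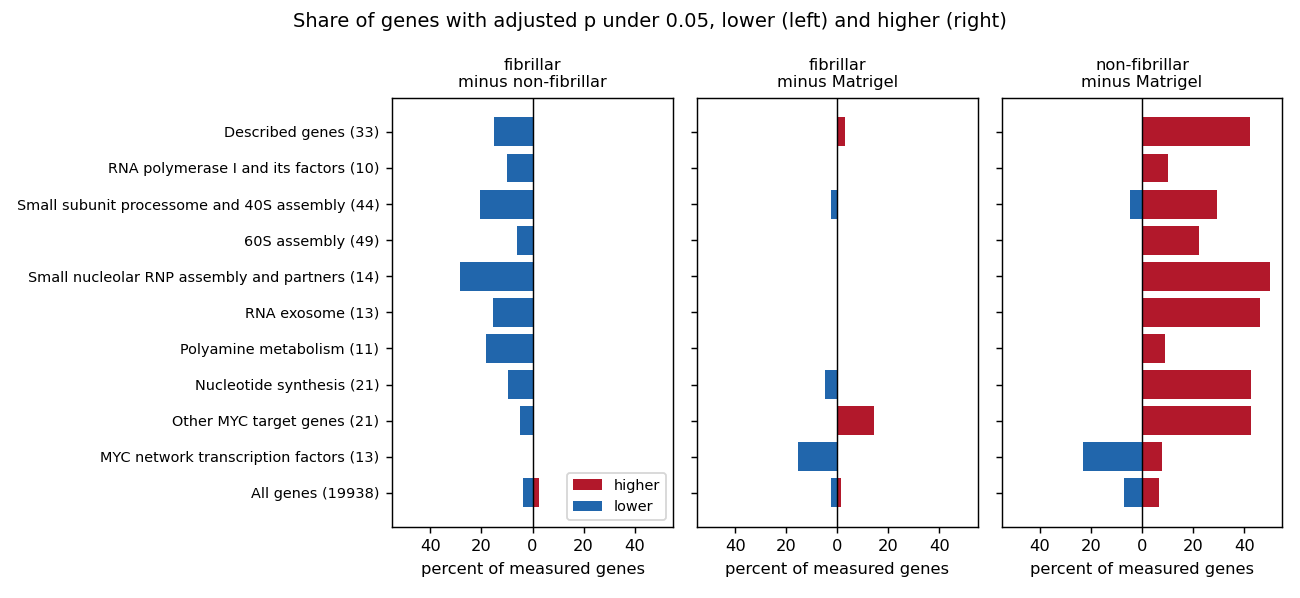
Bars show the percent of genes called higher (to the right) or lower (to the left) in each comparison, for the 33 described genes, each wider list and all 19938 genes. Bars of the ribosome lists point to lower for fibrillar minus non-fibrillar and mostly to higher for non-fibrillar minus Matrigel.

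Outside ribosome assembly, 2 of 21 nucleotide synthesis genes fell in fibrillar against non-fibrillar collagen: Umps, which follows Cad in pyrimidine synthesis (-0.29 ± 0.058 log2, 1.22-fold, adjusted p = 0.0396), and Nme1 (-0.20 ± 0.042 log2, 1.15-fold, adjusted p = 0.0415), a nucleoside diphosphate kinase whose close copy Nme2 may share probes and whose call was lost under the replicate block and after quantile normalization again. Neither call held with any 1 array left out. The 2 calls are 9.52% of the list, beside 3.69% of all genes and 7% of the brighter genes called lower. In non-fibrillar collagen against Matrigel 9 rose, with Umps at 0.38 ± 0.059 log2 (SE, 1.30-fold, adjusted p = 0.0026), the purine enzyme Ppat at 0.34 ± 0.056 log2 (SE, 1.26-fold, adjusted p = 0.0035) and Nme1 at 0.23 ± 0.046 log2 (SE, 1.17-fold, adjusted p = 0.0095). The 9 are 42.9% of the list, beside 6.75% of all genes and 12.5% of the brighter genes called higher. Ctps2, a CTP synthase, was lower in fibrillar collagen than in Matrigel (-0.25 ± 0.051 log2, 1.19-fold, adjusted p = 0.0262). This 1 call is 4.76% of the list, beside 2.37% of all genes and 4.19% of the brighter genes called lower. It held without fibrillar replicate 1 but not without any other array. It was also lost in a fit of only the 6 arrays compared (adjusted p = 0.0597) and after centring on array medians (0.0522). Of 11 polyamine genes, Dohh (-0.25 ± 0.046 log2, 1.19-fold, adjusted p = 0.0319) and the spermine oxidase Smox (-0.26 ± 0.055 log2, 1.20-fold, adjusted p = 0.0442) fell between the collagens, and Eif5a, whose hypusine is made from spermidine by an enzyme pair that includes Dohh, was higher in non-fibrillar collagen than in Matrigel (0.30 ± 0.072 log2, 1.23-fold, adjusted p = 0.0200). Of the fits that left out 1 array, Dohh and Smox passed only without fibrillar replicate 1, and Smox also lost its call after quantile normalization again. Eif5a lost its call without non-fibrillar replicate 2 or 3 or Matrigel replicate 1 or 2. The polyamine calls were 18.2% of the list between the collagens, beside 3.69% of all genes and 7% of the brighter genes called lower. Between non-fibrillar collagen and Matrigel they were 9.09%, beside 6.75% and 12.5% called higher.

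Of 21 other MYC target genes, Prmt1, the main arginine methyltransferase, was lower in fibrillar collagen than in the non-fibrillar form, at -0.33 ± 0.037 log2 (SE, 1.25-fold, adjusted p = 0.0097), a call lost without non-fibrillar replicate 2. In non-fibrillar collagen against Matrigel 9 were higher, with Prmt1 at 0.41 ± 0.041 log2 (SE, 1.33-fold, adjusted p = 2.0e-04), the transferrin receptor Tfrc at 0.38 ± 0.040 log2 (SE, 1.30-fold, adjusted p = 2.9e-04) and the mitochondrial folate enzyme Mthfd2 at 0.44 ± 0.063 log2 (SE, 1.35-fold, adjusted p = 0.0016). Fibrillar collagen also exceeded Matrigel for 3: Tfrc (0.25 ± 0.040 log2, 1.19-fold, adjusted p = 0.010), Mthfd2 (0.36 ± 0.063 log2, 1.28-fold, adjusted p = 0.0148) and Shmt2, another mitochondrial folate enzyme (0.30 ± 0.059 log2, 1.23-fold, adjusted p = 0.0227). Tfrc passed with any 1 array left out, whereas Mthfd2 did not without Matrigel replicate 2 or 3. Shmt2 did not without any 1 fibrillar array or Matrigel replicate 2, nor with only the 6 arrays compared (adjusted p = 0.0633). Of the list, 4.76% were called lower between the collagens, beside 3.69% of all genes and 7% of the brighter genes. In non-fibrillar collagen against Matrigel 42.9% were called higher, beside 6.75% and 12.5%. In fibrillar collagen against Matrigel 14.3% were called higher, beside 1.45% and 2.52%.

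Myc mRNA itself passed in no comparison. It had 10.54, 10.53 and 10.53 log2 on the fibrillar arrays, 10.50, 10.52 and 10.44 on the non-fibrillar arrays, and 10.42, 10.47 and 10.39 on the Matrigel arrays. Differences were 0.049 ± 0.036 log2 (SE, 1.03-fold, adjusted p = 0.4882) for fibrillar minus non-fibrillar, 0.11 ± 0.040 log2 (SE, 1.08-fold, adjusted p = 0.1848) for fibrillar minus Matrigel and 0.060 ± 0.040 log2 (SE, 1.04-fold, adjusted p = 0.4092) for non-fibrillar minus Matrigel. All fibrillar values were above all others, narrowly, the lowest fibrillar value being 10.5317 and the highest non-fibrillar value 10.5201. Of all genes, 11.6% lay wholly above in fibrillar against non-fibrillar collagen and 9.05% in fibrillar collagen against Matrigel. Among the brighter genes these shares were 16.7% and 11.8%. A link of Myc mRNA to the 33 genes was not tested. Mycn passed nowhere, with means of 6.52, 6.67 and 6.52 log2 in the fibrillar, non-fibrillar and Matrigel groups.

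Among the partners and antagonists of MYC, calls fell on Mycl, Mxd4, Mlxip and Mxd3, all against Matrigel. Mycl, the L-MYC gene, had 6.92, 6.85 and 6.90 log2 on the fibrillar arrays, 6.78, 6.64 and 6.81 on the non-fibrillar arrays, and 7.16, 7.14 and 7.35 on the Matrigel arrays. The 3 groups did not overlap and Matrigel was highest. It was lower than Matrigel in fibrillar collagen, at -0.33 ± 0.065 log2 (SE, 1.25-fold, adjusted p = 0.0251), and in non-fibrillar collagen, at -0.48 ± 0.065 log2 (SE, 1.39-fold, adjusted p = 0.0013). The first call was lost without any 1 fibrillar array or without Matrigel replicate 3. That call was also lost in a fit of only the 6 arrays compared (adjusted p = 0.0567) and after quantile normalization again (0.0518). The second held without any 1 array.

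Mxd4, a MAX partner that opposes MYC, had 9.22, 9.23 and 9.34 log2 on the fibrillar arrays, 9.16, 9.13 and 9.31 on the non-fibrillar arrays, and 9.68, 9.54 and 9.57 on the Matrigel arrays. All collagen arrays lay below all Matrigel arrays, and the collagen groups overlapped. The differences were -0.33 ± 0.062 log2 (SE, 1.26-fold, adjusted p = 0.0189) in fibrillar and -0.40 ± 0.062 log2 (SE, 1.32-fold, adjusted p = 0.0025) in non-fibrillar collagen, each against Matrigel. The first was lost without fibrillar replicate 1 or 2 or without Matrigel replicate 1 or 3.

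Mlxip (MondoA), a glucose-sensing factor that pairs with Mlx, was lower in non-fibrillar collagen than in Matrigel, at -0.25 ± 0.057 log2 (SE, 1.19-fold, adjusted p = 0.0177), and differed by -0.16 ± 0.057 log2 (SE, 1.11-fold, adjusted p = 0.1831) in fibrillar collagen. It had one identical value, 8.62, on all 3 fibrillar arrays. In a fit of only the 6 arrays compared, so without the fibrillar arrays, the Mlxip call was lost (adjusted p = 0.0551). Mxd3, another MAX partner, was higher in non-fibrillar collagen than in Matrigel by 0.19 ± 0.047 log2 (SE, 1.14-fold, adjusted p = 0.0272). Both calls between non-fibrillar collagen and Matrigel were lost in 4 of 6 fits that left out 1 array: for Mlxip without non-fibrillar replicate 2 or 3 or Matrigel replicate 2 or 3, for Mxd3 without non-fibrillar replicate 1 or 3 or Matrigel replicate 1 or 2.

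Max, the shared partner, had 9.41, 9.59 and 9.51 log2 on the fibrillar arrays, 9.61, 9.69 and 9.67 on the non-fibrillar arrays, and 9.66, 9.67 and 9.63 on the Matrigel arrays. Fibrillar values were below all others, at -0.15 ± 0.055 log2 (SE, 1.11-fold, adjusted p = 0.1731) against non-fibrillar collagen, which did not pass. Mxd1, Mxi1, Mnt, Mga, Mlx and Mlxipl passed nowhere. Their largest differences were 0.15 ± 0.103 log2 between fibrillar and non-fibrillar collagen (Mnt), -0.15 ± 0.054 between fibrillar collagen and Matrigel (Mxd1) and -0.20 ± 0.097 between non-fibrillar collagen and Matrigel (Mnt). Of the 13 network genes, 0, 2 (15.4%) and 4 (30.8%) were called in fibrillar minus non-fibrillar, fibrillar minus Matrigel and non-fibrillar minus Matrigel. In the same order, 6.4%, 3.82% and 13.8% of all genes were called, and 12.2%, 6.71% and 25.4% of the brighter genes.

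**Figure D5:**
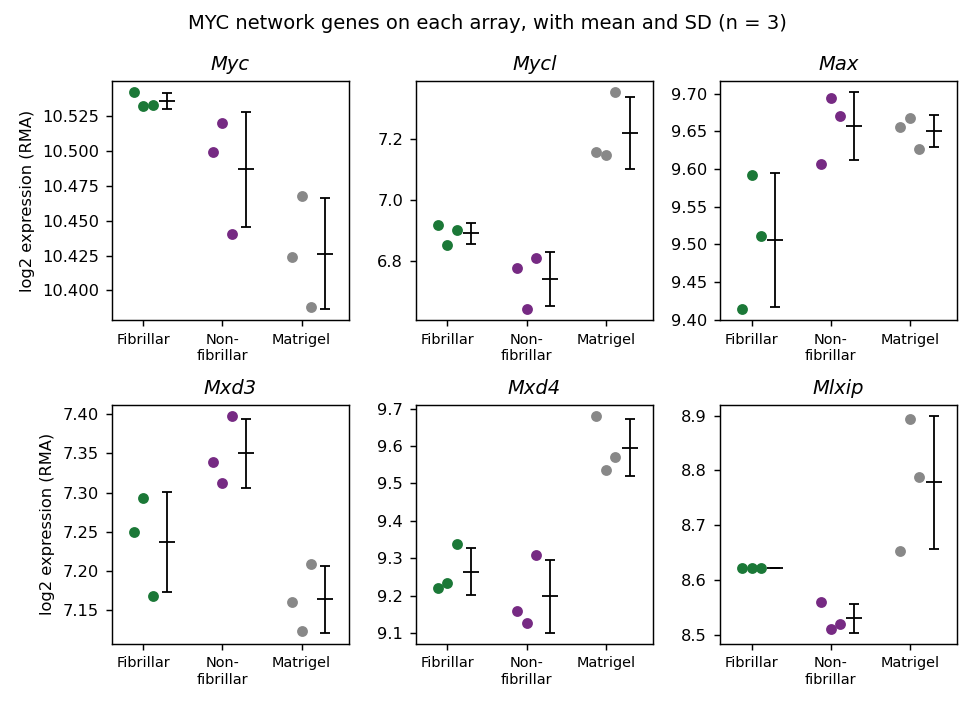
Panels show log2 expression of Myc, Mycl, Max, Mxd3, Mxd4 and Mlxip, 1 point per array with a bar at the group mean and an error bar of 1 SD (n = 3). Mycl and Mxd4 are highest on the Matrigel arrays, Mxd3 on the non-fibrillar arrays and Myc on the fibrillar arrays.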

How the data were processed

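The authors deposited log2 expression values, 1 for each probe set, produced with RMA in Affymetrix Power Tools, according to the submitters' processing notes. Its version and settings were not given in the sources used here. RMA gives all arrays a similar distribution, so a shift common to most genes could go unseen. Of 35512 probe sets, 21789 had 1 gene symbol, 1621 several and 12102 none in the platform annotation. For the 999 genes with several, the probe set of the highest mean was used, leaving 19938 genes. All 9 value columns belong to labelled samples.

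Differences were tested, two-sided, by limma (version 3.58.1, R 4.3.3) with moderated variances and Benjamini-Hochberg adjustment across all genes at 0.05. The collagen pair used its own 6 arrays, and the comparisons with Matrigel 1 fit of 9 arrays. The scripts were tested on simulated data.

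Genes and lists were chosen with earlier results of these data known. Values per array are given for genes that passed in at least 1 comparison or had the smallest p of their role. Wider lists name up to 3 passing genes per comparison, and the MYC network list all its genes.

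Same-numbered arrays' deviations correlated across genes at 0.221, 0.143 and 0.242 in the collagen pair, all above 0.1, so these arrays may be paired. The main tests of all comparisons ignored replicate number, so their adjusted p-values are unpaired. Fits with replicate number as a block were run as an alternative. No label states this pairing.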

Additional observations from a re-analysis of the deposited data

How the results depend on the processing

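The described genes called between fibrillar and non-fibrillar collagen numbered 5 in the fit of all 9 arrays, after quantile normalization again, after centring on array medians and with array weights, 4 with the mean of all probe sets, 6 with a trended robust prior, 3 with the replicate block, 11 without dim genes, 1 at an adjusted p under 0.01, and 1 to 3 with an array left out. Their median stayed between -0.14 and -0.094 log2 in all of these. Between fibrillar collagen and Matrigel the count was 2 without dim genes, 2 with the trended prior, 0 at an adjusted p under 0.01 and 1 otherwise, and the median moved to 0.087 log2 after quantile normalization again. Between non-fibrillar collagen and Matrigel the count was 6 at an adjusted p under 0.01, 7 to 11 with an array left out and 11 to 19 otherwise, and the median moved to 0.20 log2 after centring and lay at 0.15 to 0.19 with an array left out. The replicate block gave 17 calls there and 1 between fibrillar collagen and Matrigel; for these pairs not every same-number correlation passed 0.1 (0.253, 0.103 and 0.097 with fibrillar, 0.125, 0.045 and 0.135 with non-fibrillar collagen). Genes of the wider ribosome lists called between the collagens numbered 29 with all 9 arrays, 29 after centring, 42 without dim genes, 30 with the trended prior, 0 at an adjusted p under 0.01, and 0 to 11 with an array left out. Between fibrillar collagen and Matrigel they numbered 2 with the replicate block, 3 after quantile normalization, 4 without dim genes, 2 with the trended prior, 0 with array weights, 0 at an adjusted p under 0.01 and 0 with any array left out. Between non-fibrillar collagen and Matrigel they numbered 15 at an adjusted p under 0.01 and 20 to 31 with an array left out. Leaving out dim genes adjusts over fewer tests. Of the genes then kept, 22.2% were called in fibrillar minus non-fibrillar, 12.7% in fibrillar minus Matrigel and 34.4% in non-fibrillar minus Matrigel. Counts without dim genes are to be read beside these shares. For the other settings no share of all genes is given, so a larger count there is not set against its background. The cause of the other shifts was not tested. The lower-mean probe set of genes with more than 1, an alternative chosen after seeing the data, gave 4, 1 and 15 calls in fibrillar minus non-fibrillar, fibrillar minus Matrigel and non-fibrillar minus Matrigel, and turned Odc1 to -0.0077 log2 in the second. No called difference of a named gene changed direction.

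Directions turned for some differences, none of which passed. Not all were near 0. In the main fits Mxi1 differed by -0.085 log2 in fibrillar minus non-fibrillar and 0.083 in non-fibrillar minus Matrigel. With an array left out, fibrillar minus Matrigel ranged from -0.0023 to 0.108 for Ncl, -0.0010 to 0.066 for Nop2, -0.029 to 0.040 for Mga, -0.036 to 0.076 for Mycn, -0.118 to 0.022 for Mnt and -0.051 to 0.040 for Mxi1. It was also -0.0015 for Mga and -0.0036 for Mycn with array weights, and 0.033 and 0.010 for Mxi1 after quantile normalization and centring. Non-fibrillar minus Matrigel ranged from -0.030 to 0.027 for Utp20, -0.042 to 0.062 for Mlx, -0.012 to 0.032 for Max, -0.018 to 0.151 for Mxi1 and -0.043 to 0.043 for Mlxipl with an array left out. It was -0.0038 for Utp20 and -0.017 for Mlx with array weights, and 0.031 for Mlxipl after either rescaling. Fibrillar minus non-fibrillar ranged from -0.0090 to 0.077 for Mlxipl and -0.154 to 0.015 for Mxi1 with an array left out.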
